A study of Mus musculus with 10 samples.

Results

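The sodium pump and the small FXYD proteins that attach to it were examined in glomeruli, the filtering units of the kidney, of mice with and without a mutant allele of Wt1. The set comprised 8 genes: the FXYD genes Fxyd1, Fxyd3, Fxyd5, Fxyd6 and Fxyd7, and the pump beta subunit genes Atp1b1, Atp1b2 and Atp1b3. All probe sets whose platform annotation gives exactly 1 gene, and gives one of these 8, were taken, which yielded 13 of 45037 probe sets. The family drew attention because of the low Fxyd6 signal in mutants, so differences between genotypes in these 8 genes are given as a description, and nothing is supported with them.

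Total RNA of 10 mice was measured on 1 mouse expression array each. The mutant group held 5 males, heterozygous for a knock-in of the R394W allele (Wt1 +/R394W), aged 27 days and unweaned. The wild-type group held 5 male littermates (Wt1 +/+) of the same age, and both groups were FVB/N mice at backcross N4. R394W is a germline missense change in a zinc finger transcription factor of podocytes that is known as a cause of Denys-Drash syndrome, and heterozygotes keep 1 normal copy. Mutants were chosen at a stage of little protein in the urine and of a mesangium that looked intact by light microscopy. Glomeruli were isolated with magnetic beads perfused through the heart, and markers of other cell types in them are given beside the results. The Wt1 probe set 1425995_s_at read 11.43 to 11.85 in mutants and 11.06 to 11.45 in wild types, a difference of 0.33 ± 0.10 (SE) that was not called; a missense allele need not change this level, so it is no check of the genotypes.

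The sodium pump exports sodium and imports potassium at the cost of ATP. It consists of a catalytic alpha subunit, a glycosylated beta subunit that brings the enzyme to the membrane, and, in many tissues, an FXYD protein that tunes its affinity for ions. In the kidney the pump drives sodium reabsorption along the tubule, where Atp1b1 and the FXYD genes Fxyd2 and Fxyd4 are the textbook partners of the alpha subunit. Of the genes described here, Fxyd1 encodes phospholemman, known from heart and skeletal muscle, Fxyd5 encodes dysadherin, and Fxyd6 encodes phosphohippolin, known from brain and inner ear. Fxyd3 is known from stomach and colon, Fxyd7 and Atp1b2 from the nervous system, and Atp1b3 is widely expressed.

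Promoter sequence is shown for 3 genes on which the values turn: Fxyd6, the one gene called between genotypes, Atp1b3, whose genotypes lay apart by a small step, and Atp1b1, which varied most between mice. Each is the 250 bases before a transcript start listed by RefSeq for build GRCm38.p6, written 5′ to 3′ on the strand of the gene. The windows are chr9:45369935-45370184 (plus strand) for Fxyd6, chr9:96364432-96364681 (minus strand) for Atp1b3 and chr1:164458356-164458605 (minus strand) for Atp1b1. The Fxyd6 window lies inside the outer bounds of the gene, because a longer transcript starts before it. Capitals mark the GC box motif GGGCGG on either strand. They likewise mark CCACCC, known as a CACC-type element, on either strand.
Fxyd6: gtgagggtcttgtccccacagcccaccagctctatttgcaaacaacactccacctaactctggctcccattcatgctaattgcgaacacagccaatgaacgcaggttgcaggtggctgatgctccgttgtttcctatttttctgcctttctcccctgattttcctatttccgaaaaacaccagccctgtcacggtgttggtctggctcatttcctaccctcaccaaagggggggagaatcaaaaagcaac
Atp1b3: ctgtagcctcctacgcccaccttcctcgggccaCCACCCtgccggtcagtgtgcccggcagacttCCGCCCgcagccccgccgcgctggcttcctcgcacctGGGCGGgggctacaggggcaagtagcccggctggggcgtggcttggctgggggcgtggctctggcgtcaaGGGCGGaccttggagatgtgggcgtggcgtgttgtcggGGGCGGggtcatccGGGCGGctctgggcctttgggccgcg
Atp1b1: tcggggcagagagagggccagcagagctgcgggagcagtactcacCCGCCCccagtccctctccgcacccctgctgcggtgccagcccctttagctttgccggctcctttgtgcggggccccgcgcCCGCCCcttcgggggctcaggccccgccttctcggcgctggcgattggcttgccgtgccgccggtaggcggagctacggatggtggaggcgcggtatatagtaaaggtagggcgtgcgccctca

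The base composition of these windows differed. G and C made up 50.4% of the Fxyd6 window, 73.6% of the Atp1b3 window and 70.4% of the Atp1b1 window, where the median of all 32851 windows was 52.4%. GGGCGG was present in 32.7% of all windows, CCACCC in 28.1% and the TATA element TATAAA in 12.4%. The elements GCGTGGGNG and GCGGGGGCG, to which zinc finger factors of the WT1 and EGR type are known to bind, were present in 1.65% and 2.57% of all windows. GCGGGGGCG can overlap with GGGCGG, and GCGTGGGNG with the reverse strand of CCACCC. The Fxyd6 window held none of these 5 elements, and none of the 7 windows of the 6 matched genes held GCGTGGGNG, GCGGGGGCG or TATAAA. A match or its absence describes only the letters of these windows.

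Fxyd6 was 3.80-fold lower in mutant glomeruli. On the log2 scale of the deposited values its probe set (1417343_at, chromosome 9) read 6.27, 6.15, 6.92, 6.55 and 7.03 in mutants 1 to 5, against 8.44, 8.56, 8.24, 8.78 and 8.53 in wild types 1 to 5. All 5 mutants lay below all 5 wild types, with a gap of 1.21 between the highest mutant and the lowest wild type. The mean was 6.58 ± 0.39 in mutants and 8.51 ± 0.20 in wild types (SD, n = 5 each), and the difference of mutants minus wild types was -1.93 ± 0.17 (SE). The adjusted p of 0.000236, from the limma fit with Benjamini-Hochberg adjustment over all 45037 probe sets, is the value by which the gene came to notice. Fxyd6 stood at place 12 among all probe sets ordered from the most negative difference. It was read by 1 probe set only. Its mutant mean lay near the array medians of 6.31 to 6.39, where RMA may compress a change, so the fold is approximate. In whole glomeruli, fewer cells that express Fxyd6 and less Fxyd6 RNA per cell cannot be told apart.

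**Figure D1:**
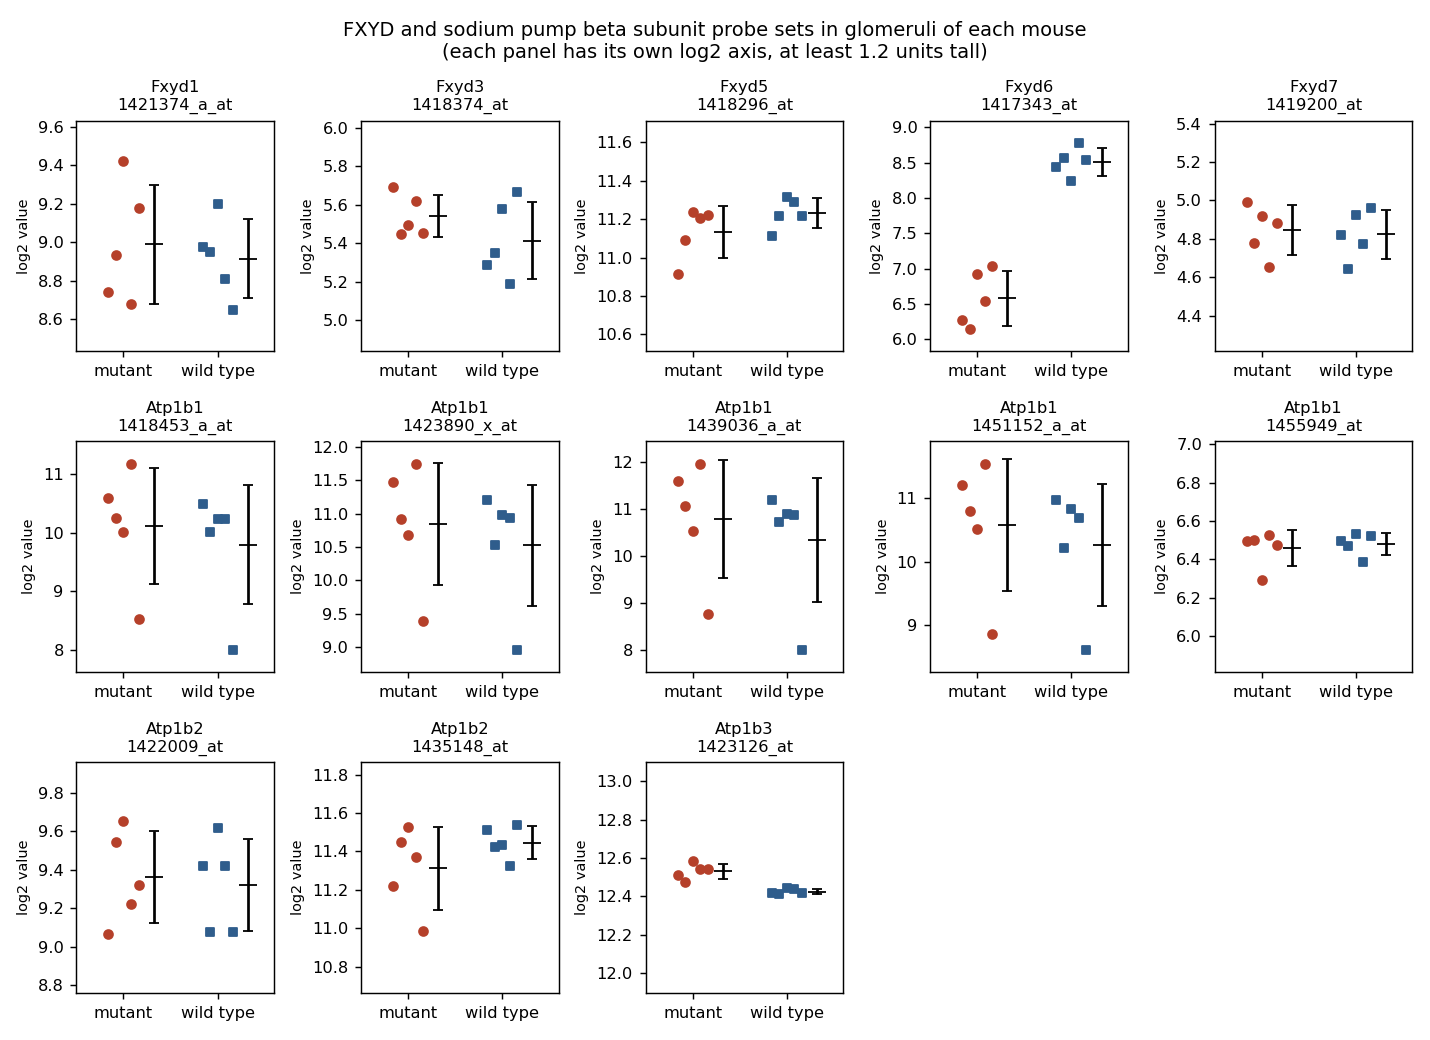
Deposited log2 values of the 13 probe sets in each mouse, mutants (circles) left of wild types (squares), with the mean ± SD of 5 mice beside the points; each panel has its own axis. The Fxyd6 panel shows mutants between 6.15 and 7.03 and wild types between 8.24 and 8.78, while mutant 5 and wild type 5 lie far below the other mice in 4 panels of Atp1b1.

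Fxyd6 was the sole called probe set of the 13. A call is an adjusted p under 0.05 in that fit, which 0.853% of all probe sets reached, 0.462% being lower and 0.391% higher in mutants. Because the contrast drew attention to the family, nothing is read from the count of 1. The genotypes did not overlap in 2 of the 13 probe sets, those of Fxyd6 and Atp1b3, against 2.78% of all probe sets. Fxyd6 is the gene for which the family was chosen, so nothing is read from this count either. Differences in the 12 uncalled probe sets ran from -0.14 to 0.45 on the log2 scale. The median over the 13 was 0.07, and over all probe sets -0.0022.

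The other FXYD genes showed much smaller differences than Fxyd6. The Fxyd5 probe set (1418296_at, chromosome 7) read 10.91, 11.09, 11.24, 11.21 and 11.22 in mutants 1 to 5, against 11.11, 11.22, 11.31, 11.29 and 11.22 in wild types 1 to 5. The values overlapped, and the difference was -0.10 ± 0.07 (SE). Fxyd1 (1421374_a_at, chromosome 7) read 8.74, 8.94, 9.42, 8.68 and 9.18 in mutants 1 to 5, against 8.97, 8.95, 9.20, 8.81 and 8.65 in wild types 1 to 5. Its highest value was in mutant 3 and its lowest in wild type 5, the genotypes overlapped, and the difference was 0.07 ± 0.15 (SE).

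Fxyd3 and Fxyd7 gave weak signals. Fxyd3 (1418374_at, chromosome 7) lay between 5.45 and 5.69 in mutants and between 5.19 and 5.67 in wild types, with a difference of 0.13 ± 0.10 (SE). Fxyd7 (1419200_at, chromosome 7) lay between 4.66 and 4.99 in mutants and between 4.64 and 4.96 in wild types, with a difference of 0.02 ± 0.08 (SE). The genotypes overlapped for both genes, for Fxyd3 in part, since 3 of the 5 wild types lay below the lowest mutant. Their means over all arrays, 5.48 and 4.83, were the ones under 6 among the 13 probe sets, and RMA values this low compress any change, so they say little of these genes.

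**Figure D2:**
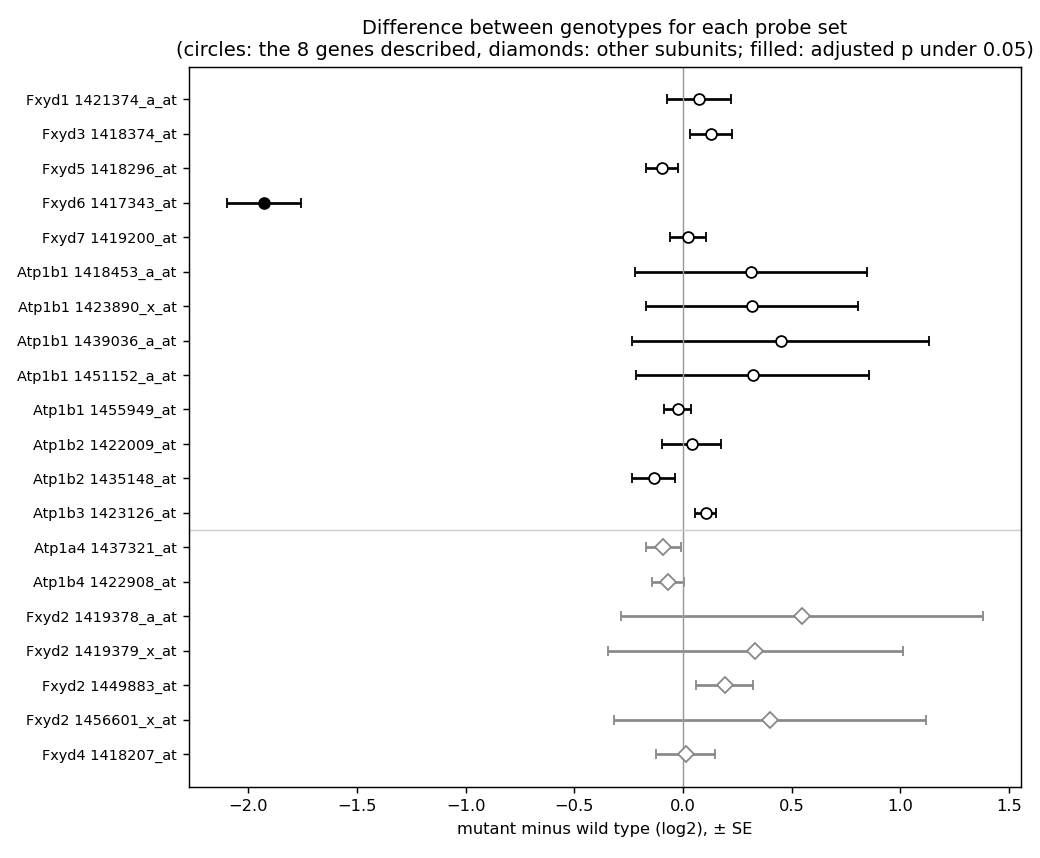
Difference of mutants minus wild types on the log2 scale with its standard error (n = 5 mice per genotype) for the 13 probe sets of the 8 genes (circles) and for 7 probe sets of other subunits (diamonds); filled symbols mark an adjusted p under 0.05. The Fxyd6 probe set stands alone at -1.93, and the widest errors belong to Atp1b1 and Fxyd2.

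The 8 genes lie on 4 chromosomes. Fxyd6 lies next to Fxyd2 on chromosome 9, and Fxyd1, Fxyd3, Fxyd5 and Fxyd7 lie close together on chromosome 7. Atp1b3 is also on chromosome 9, Atp1b1 on chromosome 1 and Atp1b2 on chromosome 11, so none of the 8 shares chromosome 2 with Wt1. Among the 3 genes on either side of Fxyd6 in gene order, 4 had a named probe set and none was called. The probe set with the highest mean differed by 0.05 ± 0.10 (SE) for the protease gene Tmprss13, by 0.33 ± 0.68 (SE) for Fxyd2, by 0.14 ± 0.08 (SE) for the non-coding 4833428L15Rik and by 0.08 ± 0.06 (SE) for the adhesion gene Dscaml1. Of these, Tmprss13 and 4833428L15Rik had mean signals of 4.64 and 4.79.

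Among the beta subunits, Atp1b3 showed a small step with little spread. Its probe set (1423126_at) read 12.51, 12.47, 12.58, 12.54 and 12.54 in mutants 1 to 5, against 12.42, 12.41, 12.44, 12.44 and 12.42 in wild types 1 to 5. Every mutant lay above every wild type, but the gap between the groups was 0.03 and the difference 0.10 ± 0.05 (SE), a factor of 1.08, which was not called.

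Atp1b2, a beta subunit that also acts as an adhesion molecule on glia, had 2 probe sets (chromosome 11). The brighter one (1435148_at) read 11.22, 11.45, 11.53, 11.37 and 10.99 in mutants 1 to 5, against 11.51, 11.42, 11.43, 11.32 and 11.54 in wild types 1 to 5. The difference was -0.14 ± 0.10 (SE), with mutant 5 lowest and the genotypes overlapping. The other (1422009_at) lay between 9.06 and 9.65 in mutants and between 9.08 and 9.62 in wild types, with a difference of 0.04 ± 0.14 (SE). Over the 10 arrays the pair correlated at r = 0.24.

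Atp1b1, the main beta subunit of the kidney, varied most between mice of either genotype. Its probe set of highest mean (1423890_x_at, chromosome 1, of a type that can match other transcripts) read 11.48, 10.91, 10.68, 11.75 and 9.40 in mutants 1 to 5, against 11.21, 10.53, 10.98, 10.94 and 8.96 in wild types 1 to 5. Mutant 5 and wild type 5 were the lowest of their groups, and the groups overlapped. The difference was 0.32 ± 0.49 (SE), and it was 0.31 ± 0.53 (SE) for 1418453_a_at, 0.45 ± 0.68 (SE) for 1439036_a_at and 0.32 ± 0.54 (SE) for 1451152_a_at. These differences rest on single mice: over the 4 probe sets they ran from -0.13 to -0.07 without wild type 5, from 0.68 to 0.95 without mutant 5, from 0.05 to 0.15 without mutant 4, from 0.16 to 0.25 without mutant 1 and from 0.48 to 0.66 without wild type 1, so no direction is given. In the 4 probe sets, values ran from 8.53 to 9.40 in mutant 5 and from 10.01 to 11.97 in the other mutants, against 8.01 to 8.96 in wild type 5 and 10.02 to 11.21 in the other wild types.

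The fifth Atp1b1 probe set, 1455949_at, behaved differently. It lay between 6.29 and 6.53 in mutants and between 6.39 and 6.53 in wild types, with a difference of -0.02 ± 0.06 (SE). Its correlation with each of the other 4 over the 10 arrays lay between -0.01 and 0.01, whereas those 4 correlated with each other at 0.988 to 0.996. Whether 1455949_at reads the Atp1b1 transcript was not tested.

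Atp1b1 was set against the tubule markers in the same preparations. A tubule score was formed per mouse as the mean of 2 averages, over 16 measured proximal tubule markers and over 14 measured distal nephron markers. None of these markers is one of the 8 genes, but some, such as Bsnd, are also in the lists of genes that work with the pump, given below. The score is given per mouse. It was 9.11, 8.78, 8.38, 9.57 and 6.95 in mutants 1 to 5, against 8.83, 8.23, 8.61, 8.83 and 6.91 in wild types 1 to 5. Mutant 5 and wild type 5 thus stood apart from the other 8 mice, whose scores ran from 8.23 to 9.57, and the relation was taken within those 8 with genotype means removed. There, 4 of the 5 Atp1b1 probe sets had Pearson r of 0.933 to 0.957, with exact permutation p of 0.0301 to 0.0451 after adjustment over the 13 probe sets (two-sided, n = 8). The fifth, 1455949_at, had r of 0.57 (adjusted exact permutation p = 0.587, n = 8). This test exchanged mice only within their genotype, in all 576 arrangements, and was added after seeing the data. The 4 probe sets correlated with each other at 0.988 to 0.996 over the 10 arrays, so they are not 4 separate results. The adjustment nevertheless counted each of them. Before adjustment their exact permutation p was 0.00694 to 0.0139, and an adjustment with 1 probe set per gene was not run. Spearman rho was 0.810 to 0.857, and its adjusted exact permutation p of 0.135 missed 0.05. With the distal nephron markers alone, r for these 4 probe sets was 0.60 to 0.83 in the same 8 mice and none passed (adjusted exact permutation p = 0.143 to 0.169).

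No relation with the score passed this test for the other members. For Fxyd6, r was -0.23 (adjusted exact permutation p = 0.839, n = 8) and rho 0.07 (0.892), and for Atp1b3 r was -0.12 (0.892) and rho 0.07 (0.892). Fxyd1 ran against the score with r of -0.76 and rho of -0.74, and the adjusted exact permutation p-values of 0.217 and 0.226 (n = 8) were not under 0.05. Fxyd2, the neighbour of Fxyd6 and a tubule gene, had r of 0.986 with the score at 1419379_x_at (n = 8), given as a description because it is no member of the 8 genes. Its r was 0.990 at 1419378_a_at and 0.994 at 1456601_x_at, but -0.30 at the dim 1449883_at.

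**Figure D3:**
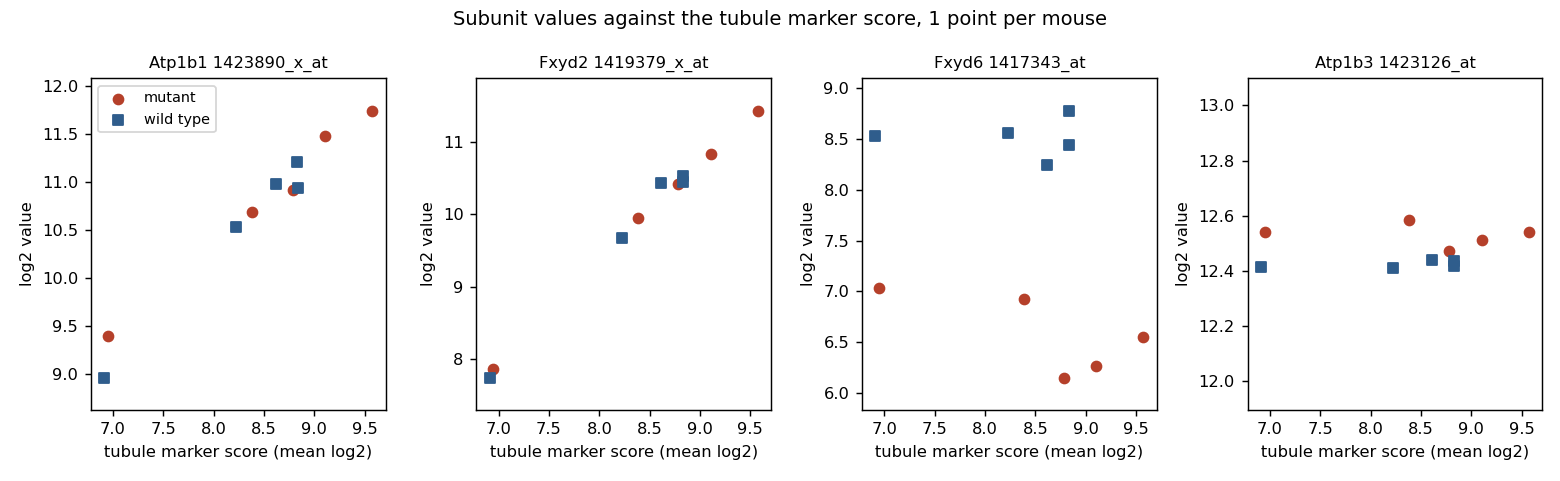
Deposited log2 values of Atp1b1, Fxyd2, Fxyd6 and Atp1b3 (1 probe set each) against the tubule marker score, the mean log2 value of tubule markers, with 1 point per mouse (circles mutant, squares wild type). Atp1b1 and Fxyd2 climb with the score in both genotypes, from the pair near 6.9 to mutant 4 at 9.57, while the Fxyd6 genotypes stay apart at low and high scores.

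With the tubule score as a covariate, the difference in Fxyd6 was -1.88 ± 0.16 (SE). Those of the same 4 Atp1b1 probe sets were between 0.01 and 0.07, none called. Without mutant 5 and wild type 5, a choice made after seeing the data, the Fxyd6 difference was -2.04 ± 0.17 (SE) and the count of called probe sets among the 13 was again 1.

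Marker lists of other cell types were compared between genotypes beside the Fxyd6 result. Of 8 measured podocyte markers none was called, and their mean ran from 12.93 to 13.26 in mutants and from 13.09 to 13.24 in wild types. The mean of 8 nerve and glia markers, of interest because Fxyd6 is known from neural tissue, ran from 5.94 to 5.99 in mutants and from 5.91 to 6.10 in wild types. None of the 8 was called, and 4 had a mean under 6. Mesangial and smooth muscle markers ran from 10.76 to 11.22 in mutants and from 10.59 to 10.89 in wild types, and endothelial markers from 11.81 to 12.19 in mutants and from 11.97 to 12.16 in wild types, with none called in either list. The erythroid list, with 4 of 6 genes measured and 1 called lower, ran from 6.66 to 7.11 in mutants and from 7.13 to 7.82 in wild types. It was the one list of 9 whose genotypes did not overlap, and its part in the Fxyd6 result was not tested. Among 8 leukocyte markers 1 was called lower, and the list ran from 6.22 to 6.87 in mutants and from 6.38 to 7.21 in wild types. No marker was called among 6 parietal epithelial genes (7.97 to 8.27 in mutants, 8.07 to 8.24 in wild types). None was called among the proximal tubule markers (7.04 to 10.82 in mutants, 6.97 to 9.68 in wild types) or the distal nephron markers (6.85 to 8.33 in mutants, 6.86 to 8.14 in wild types).

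Genes that work with the pump were taken from 5 lists chosen by role, with 1 probe set per gene. Of 66 genes listed 57 were measured, and limma called none of them at an adjusted p under 0.05, in either direction, also with an intensity trend and robust moderation. Over all genes 1.26% were called. At an unadjusted p under 0.05 there were 5 of the 57, where 11% of all genes fell under that value. Their median difference was 0.08, against 0.00 for all 18193 genes.

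Among other pump subunits and FXYD proteins, 4 of 7 listed genes were measured and none was called. Fxyd2, the gamma subunit of tubule cells, had 3 bright probe sets that spread widely with differences of 0.33 to 0.55, and 1 dim one at 0.19. Fxyd4, a pump partner of the collecting duct, lay between 5.88 and 6.56 in mutants and between 5.88 and 6.41 in wild types, with a difference of 0.01 ± 0.14 (SE). Atp1a4, the alpha subunit of sperm, differed by -0.09 ± 0.08 (SE) at a mean of 5.20, and Atp1b4, a muscle gene, by -0.07 ± 0.08 (SE) at a mean of 3.29.

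Among related pumps and pump-interacting proteins (6 measured), Nkain2, whose product binds the beta subunit, averaged 6.42 ± 0.64 in mutants and 7.46 ± 0.38 in wild types (SD, n = 5 each). The difference was -1.04 ± 0.28 (SE, limma adjusted p = 0.182), all 5 mutants lay below the wild-type mean, and the genotypes overlapped. Nkain4 differed by -0.10 ± 0.09 (SE). Among 18 measured regulators, the kinase gene Stk39 differed by 0.41 ± 0.14 (SE, limma adjusted p = 0.322) and the kinase gene Wnk1, upstream of it in the control of ion carriers, by -0.14 ± 0.06 (SE, limma adjusted p = 0.501).

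Of 19 measured sodium carriers and channels, the sodium channel subunit gene Scn2b differed by 0.45 ± 0.15 (SE, limma adjusted p = 0.327) and the sodium-proton exchanger gene Slc9a2 by 0.24 ± 0.15 (SE, limma adjusted p = 0.678). Of 10 measured potassium and chloride channel genes, the potassium channel gene Kcnk1 differed by 0.47 ± 0.13 (SE, limma adjusted p = 0.183) and Bsnd, a chloride channel subunit gene, by 0.11 ± 0.07 (SE, limma adjusted p = 0.707). The sodium carriers are largely tubule genes, and their list had a median difference of 0.24. The tubule score ran from 6.95 to 9.57 in mutants and from 6.91 to 8.83 in wild types, and its part in that median was not tested. Slc34a1, Slc5a2, Slc12a1, Slc12a3 and Scnn1g belonged to both the sodium carrier list and the score, so list and score are not separate measures.

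The genes whose values over the 10 arrays were most like those of Fxyd6 were themselves different between genotypes, and the difference between genotypes enters each of these correlations. With 1 probe set for each of 18192 other genes, the highest Pearson r belonged to Cd59a (0.968), Scel (0.968), Col1a2 (0.964), Mgat4a (0.963) and Cdon (0.960), and all 5 were called lower in mutants. The lowest belonged to Cald1 (-0.959), Mxra7 (-0.941), Tmem64 (-0.938), Ptgds (-0.934) and Rassf6 (-0.932), which were higher in mutants on average, 4 of them called and Cald1 not. After genotype means were removed, other genes took these places. Highest were Klhdc8b (0.969), Fbxl15 (0.964), Cdc25a (0.961), Frmd8 (0.961) and Necab1 (0.958), and none of these was called between genotypes. Lowest were 4930509E16Rik (-0.944), Prame (-0.941), Ids (-0.930), Gm5089 (-0.927) and Prf1 (-0.925). Rassf6, Necab1, 4930509E16Rik, Prame, Gm5089 and Prf1 had means under 6 in both genotypes, so their values say little. Among 18192 genes over 10 arrays, r values this extreme can arise without any relation, and none of them was tested. Of the members, Atp1b3 had r of -0.77 with Fxyd6 over the deposited values (place 17940 of 18192 from the highest) and 0.68 after genotype means were removed (place 619), so its sign turned with the scale. Fxyd5 had r of 0.56 over the deposited values and 0.59 after genotype means were removed.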

How the data were processed

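The authors deposited 1 table of log2 values, which the submitters' processing notes credit to RMA (robust multi-array average); no version, setting or genome build is stated there. RMA makes arrays alike and compresses changes of weak signals. With 5 arrays per genotype, their number limits the precision. Medians of the arrays spanned 0.0817, array correlations ran from 0.985 to 0.997, and no pair of arrays was identical. Columns were matched to mice through the titles, and replicate numbers only name mice.

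After removal of Affymetrix controls, 45037 of 45101 probe sets were tested with limma (version 3.58.1, R version 4.3.3), mutant minus wild type, without covariates. Two-sided p-values were adjusted by the Benjamini-Hochberg method. The step was tested on simulated data. Correlations used scipy (version 1.17.1), permuting all 10 mice (100000 resamples) or 8 (40320 arrangements); with genotype means removed this is approximate, so the p-values given are exact ones that exchange mice only within genotype (576 arrangements for 8 mice), added after seeing the data.

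In lists, a gene counts through its probe set of highest mean. Named genes are all members, the 2 of smallest p per companion list, the neighbours of Fxyd6 and the 5 genes most and least like it. Members and lists were chosen with earlier results of these data known. Other subunits beyond that rule were named after their values were seen. Promoters and gene order come from RefSeq (GRCm38.p6). Promoters matched 6 of 8 members.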

Additional observations from a re-analysis of the deposited data

Results flagged for a closer look

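In 26 groups of 5 mice (13 probe sets, each genotype), 3 had 1 mouse far from the others by Dixon's criterion, where chance gives about 5% of groups. Wild type 5 was lowest for Atp1b1 at 1418453_a_at (8.01, with the next wild type at 10.02) and at 1439036_a_at (8.01, with the next at 10.73). These probe sets correlated at 0.996 over the 10 arrays and flag the same mouse. The groups are thus not independent, and the count of flags cannot be set against 5%. Wild type 5 also had the lowest tubule score of all mice, 6.91. Mutant 3 was lowest at the dim Atp1b1 probe set 1455949_at (6.29, with the next mutant at 6.47).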

How the results depend on the processing

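The Fxyd6 difference kept its sign and its call under all 21 alternatives run, from -2.07 to -1.82 with adjusted p of 0.000172 to 0.0147 (limma), and from -2.04 to -1.82 when 1 mouse was left out. None of the 12 other probe sets was called under any alternative, and the companion genes gave 0 calls throughout. Over the whole array 384 probe sets were called. The number was 144 at an adjusted p under 0.01, 110 with the mice of close animal numbers, 126 with those mice and their run of numbers as a block, 240 without wild type 5 and mutant 5 (chosen after seeing the data), and 216 to 301 with 1 mouse left out, the lowest without wild type 4 and 242 without wild type 1. All but the first of these settings hold fewer mice by construction. The tubule score was related to 4 of the 13 probe sets by Pearson r, over 10 or 8 mice, whether mice were exchanged within genotype or freely. All 4 were of Atp1b1 and read alike, and the adjustment counted each of them. With the distal list alone and 8 mice the number of related probe sets was 0 by either test, with r of 0.60 to 0.83 for those 4, and the cause was not tested. With free exchange, which is approximate here, the adjusted permutation p for the 4 in 8 mice was 0.00419. The proximal list alone then gave 5, the added one being Fxyd1 (r = -0.84, adjusted permutation p = 0.0223), but 4 with exchange within genotype (Fxyd1 exact permutation p = 0.113). No paired analysis was possible because the labels give no shared litter or replicate number. Background correction and detection were not varied, for want of scanner files in this work, and 2 of the 13 probe sets had a mean under 6.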
